A study of Mus musculus with 3 samples.

Results

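Cytokines of the common gamma chain family signal through receptors that share the subunit encoded by Il2rg. It pairs with another chain, called private here although Il2rb serves both IL-2 and IL-15. Neither chain has kinase activity of its own, and signalling relies on Janus kinases bound to the cytoplasmic tails, with JAK3 on the gamma chain and JAK1 on the private chains, which then phosphorylate STAT proteins. In type 2 innate lymphoid cells (ILC2s), tissue lymphocytes without rearranged antigen receptors, IL-7 and IL-2 are known for maintenance and growth, IL-9 for survival and IL-4 for amplifying type 2 cytokine output.

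The 10 genes described here are the 6 receptor chain genes Il2rg, Il2ra, Il2rb, Il7r, Il9r and Il4ra and the 4 Janus kinase genes Jak1, Jak2, Jak3 and Tyk2, taken by gene symbol from 16129 listed genes, in which all 10 were found. Bulk RNA was sequenced from ILC2s that were isolated by cell sorting from lung tissue of wild-type mice given IL-33, an epithelial alarmin, in vivo. The 3 libraries, replicates 1 to 3, form 1 group. Control cells were not analysed here, so the comparisons are between genes within a library and between libraries. For the sorting gates, for the strain, age and sex of the mice and for the IL-33 dose and time, the labels give no entry. They also do not tie the libraries to individual mice, and the SDs below may therefore measure technical spread only.

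Levels are in TPM, a share of all transcripts scaled to a sum of 1000000 per library. These values are corrected for transcript length, so comparisons between genes depend on the length assumed for each gene. Each library held 19883728 to 19976129 estimated reads. All 12 ILC2 markers examined were detected, at means of 156 (Areg) to 2460 (Arg1) TPM, where detected means at least 1 TPM in every library. Of all listed genes, 67.3% were detected. Some markers sought for macrophages, mast cells and basophils, neutrophils and eosinophils were not among the listed genes and were not analysed here. Of 50 listed markers of 11 other cell types 21 were detected, with a median of 0.763 TPM, and no listed marker was at 0 in all 3 libraries. Of these markers 6 had a mean of at least 20 TPM. They included the T cell marker Cd3g (416 TPM), the macrophage genes Chil3 (375) and Lyz2 (39.1) and the endothelial marker Pecam1 (79.8). The epithelial marker Cdh1 (23.3) and the B cell marker Cd79b (21.9) completed the 6. The T cell markers Cd3e and Cd3d were far below Cd3g, at 7.19 and 1.86 TPM.

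Promoter sequence, from RefSeq on GRCm38.p6, is shown first for the 3 receptor chain genes in which a search for binding motifs of lymphocyte transcription factors found a match in the 300 bases around the transcription start (250 before, 50 after). Of the 10 genes, 9 matched the promoter table, and Il2rb did not. Capitals mark the matches, the run for Il2rg is the stretch before the gene, and those for Il7r and Il9r are short windows around a match.
Il2rg: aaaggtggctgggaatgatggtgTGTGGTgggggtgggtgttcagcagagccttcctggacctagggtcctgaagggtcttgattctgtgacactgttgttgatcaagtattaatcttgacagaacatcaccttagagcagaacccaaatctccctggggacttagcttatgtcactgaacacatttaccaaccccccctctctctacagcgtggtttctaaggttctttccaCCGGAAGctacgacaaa
Il7r: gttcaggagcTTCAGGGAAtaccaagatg
Il9r: gactcatctctcTTATCTcctggatcaggt

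The Il2rg run is chrX:101268256-101268505 on the minus strand and holds the RUNX motif TGTGGT 227 bases and the ETS motif CCGGAAG 17 bases before the start. The Il7r window is chr15:9530000-9530028 on the minus strand, with the STAT motif TTCNNNGAA 142 bases before the start used, 9529876. That start lies inside the outer end of the RefSeq gene. The window lies beyond that end, but within the span of Il7r once its GENCODE exons are included. The Il9r window is chr11:32200292-32200321 on the minus strand, with the GATA motif AGATAA read on the opposite strand 30 bases before the start used, 32200279. That start and this window lie within the annotated span of Il9r, whose outer end is at 32205283, so they belong to an internal start. A second AGATAA match in the same Il9r promoter lies 223 bases before that start and is not shown. Both strands were searched for each motif, and no matches overlapped in these genes. TTCNNNGAA was found in the promoter of 1 of the 9 genes and in 8.30% of all 32851 promoters, AGATAA in 1 of 9 and 11.2%, TGTGGT in 3 of 9 (Il2rg, Il7r and Il9r) and 16.8%, and CCGGAAG in 1 of 9 and 8.86%. These matches describe the letters only, since binding was not measured.

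All 10 genes were detected, against 67.3% of all listed genes. A mean of at least 20 TPM was reached by all 10, against 40.5%, and a mean of at least 100 TPM was reached by 8 of the 10, against 10.3% of all listed genes, the exceptions being Tyk2 and Il4ra. Their median of 202 TPM compares with 11.2 TPM over all listed genes. The receptor chains spanned a wide range, from 27.9 to 795 TPM (28.5 times), and the kinases a narrower one, from 68.1 to 302 TPM (4.43 times).

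**Figure D1:**
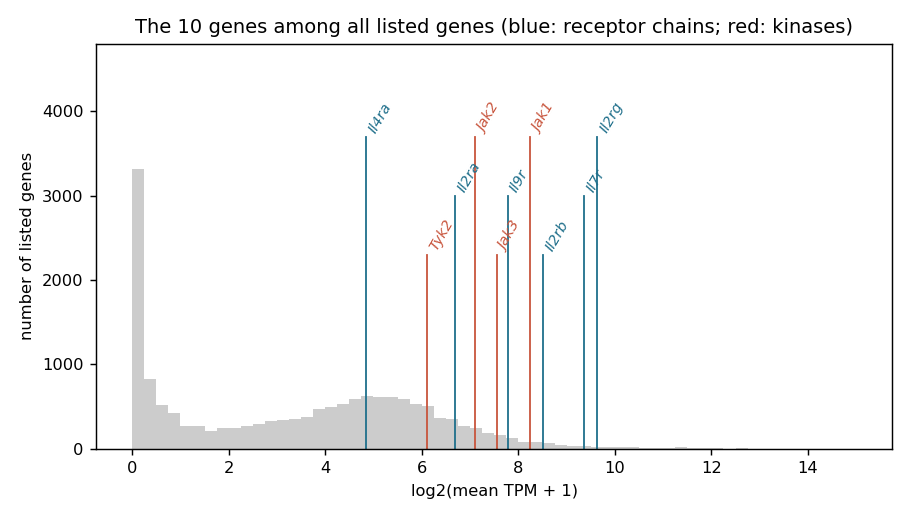
Histogram of log2(mean TPM + 1) over the 16129 listed genes (grey bars, number of genes), with the mean of each of the 10 genes drawn as a line (blue, receptor chains; red, Janus kinases; line heights only separate the labels). Il4ra, at 27.9 TPM, lies near the broad peak, and Il2rg, at 795 TPM, lies above 99.0% of listed genes.

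The shared chain was the highest of the 10. Il2rg stood at 831, 762 and 793 TPM in replicates 1, 2 and 3 (mean 795 ± 34.5, SD, n = 3 libraries), which placed it at rank 161 of all listed genes. It was highest in replicate 1 and lowest in replicate 2. The gene lies on chromosome X from 101264385 to 101268255 on the minus strand (GRCm38.p6), and its longest RefSeq-matched transcript has 8 exons and 1670 bases, the shortest such transcript of the 10. Of its 50-base words, 40.8% also occur in other genes, chiefly in the gene model Gm20489, which overlaps Il2rg on the same strand. Gm20489 is not among the listed genes, and whether reads were divided between them was not tested.

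Il7r, the private chain of the IL-7 receptor that also serves the receptor for TSLP, followed at 682, 649 and 646 TPM. Replicate 1 was again the highest, and all 3 libraries lay below the lowest Il2rg value of 762. Il2rg exceeded Il7r by 0.27 ± 0.035 on the log2(TPM + 1) scale, a TPM ratio of 1.21, in 3 of 3 libraries. Il7r lies on chromosome 15 from 9506159 to 9529941.

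Among the chains of the IL-2 receptor, the signalling chain exceeded the affinity chain. Il2rb, the signalling chain shared by IL-2 and IL-15, stood at 369, 359 and 361 TPM. Il2ra (CD25), which raises the affinity for IL-2 and has no signalling tail, stood at 98.9, 104 and 103 TPM. The libraries did not overlap between these chains, and Il2rb exceeded Il2ra by 1.82 ± 0.057 on the log2(TPM + 1) scale, a TPM ratio of 3.56. Il2rg in turn exceeded Il2rb by 1.13 ± 0.044 on that scale (TPM ratio 2.19) and Il2ra by 2.95 ± 0.097 (7.81), so the chains of the trimeric receptor were ordered Il2rg, Il2rb, Il2ra in each library. The sizes of these differences depended on the length assumed for Il2rb. With the longest RefSeq-matched transcript of each gene, Il2rb exceeded Il2ra by 1.42 ± 0.054 and Il2rg exceeded Il2rb by 1.49 ± 0.047. Foxp3, which marks regulatory T cells, known for high CD25, was at 0.18, 0.12 and 0.3 TPM. Other T cell markers were detected, with means of 416 (Cd3g), 7.19 (Cd3e) and 1.86 TPM (Cd3d). Which cells the Il2ra RNA came from was not tested.

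Il9r, the private chain for IL-9, stood at 223, 218 and 214 TPM. Its 3 values span 1.04 times, and Il7r exceeded it by 1.59 ± 0.018 on the log2(TPM + 1) scale (TPM ratio 3.02). Il4ra, which pairs with the gamma chain for IL-4 and with IL-13Rα1 for IL-4 and IL-13, was the lowest of the 10 at 26.4, 28.6 and 28.9 TPM. It was lowest in replicate 1, and 66.1% of all listed genes had a lower mean. Il2rg exceeded Il4ra by 4.78 ± 0.126 on the log2(TPM + 1) scale, a TPM ratio of 28.5. In bulk RNA, a gene present in fewer cells and a gene present at less RNA per cell cannot be told apart. Il4ra lies on chromosome 7 from 125552271 to 125579474 and Il9r on chromosome 11 from 32187544 to 32205283.

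**Figure D2:**
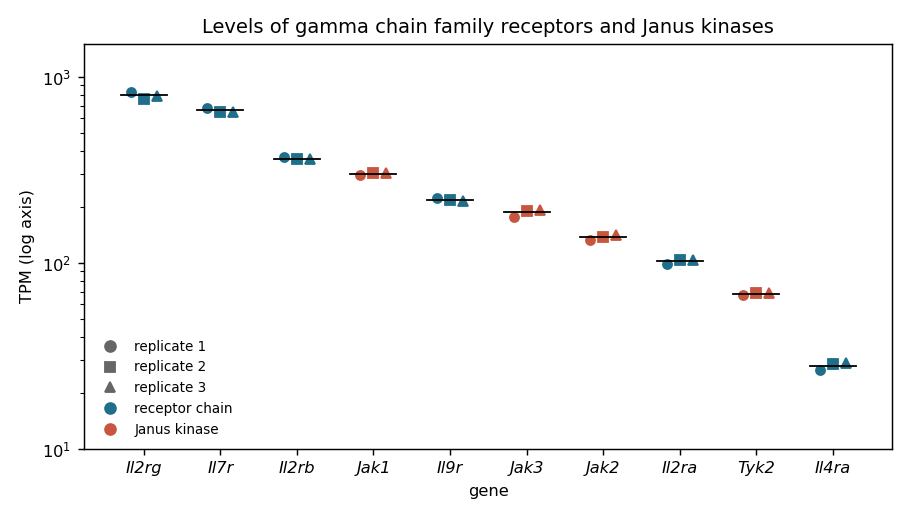
TPM (log axis) of the 10 genes in each library, ordered by mean. Symbols are replicates 1 to 3, horizontal lines the mean of the 3, blue the receptor chains and red the Janus kinases. The 3 libraries of a gene lie close together and those of neighbouring genes do not overlap, from Il2rg at 762 to 831 down to Il4ra at 26.4 to 28.9 TPM.

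The private chains together exceeded the shared chain. Il2rb, Il4ra, Il7r, Il9r and Il21r (the IL-21 receptor chain) summed to 1324, 1280 and 1272 TPM, and Il2rg was 0.627, 0.595 and 0.623 of that sum (mean 0.615 ± 0.0173, SD, n = 3; no test). Il7r made up 51.0 ± 0.412% of the sum, Il2rb 28.1 ± 0.241%, Il9r 16.9 ± 0.0933%, Il4ra 2.16 ± 0.152% and Il21r 1.85 ± 0.10%. Thus each single private chain transcript was below Il2rg and their sum was above it in all 3 libraries. Because Il7r and Il4ra also serve receptors without the gamma chain, the ratio is not a balance of subunits. These are transcript levels, and surface protein was not measured.

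The Janus kinases were ordered Jak1, Jak3, Jak2, Tyk2 in every library. Jak1, which serves all private chains of the family and many other cytokine receptors, stood at 295, 305 and 305 TPM. Jak3, the partner of the gamma chain, stood at 176, 191 and 193 TPM, with replicate 1 the lowest and the largest coefficient of variation of the 10 genes (5.13%). Jak1 exceeded Jak3 by 0.69 ± 0.049 on the log2(TPM + 1) scale, a TPM ratio of 1.62, in 3 of 3 libraries.

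Jak2, which serves the interferon gamma, TSLP and beta common chain receptors, stood at 133, 137 and 141 TPM. Tyk2, used by type I interferon, IL-10 and IL-12 family receptors, was the lowest kinase at 66.7, 68.6 and 68.9 TPM. None of these ranges overlapped. Jak3 exceeded Jak2 by 0.44 ± 0.038 (TPM ratio 1.36), Jak2 exceeded Tyk2 by 0.999 ± 0.019 (2.01) and Jak1 exceeded Tyk2 by 2.13 ± 0.0047 (4.43) on the log2(TPM + 1) scale. Of the summed kinase TPM, Jak1 gave 43.5 ± 0.496%, Jak3 26.9 ± 0.619%, Jak2 19.8 ± 0.175% and Tyk2 9.82 ± 0.114%.

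Jak1 lies on chromosome 4 from 101151974 to 101265282, Jak2 on 19 from 29251803 to 29313095, Jak3 on 8 from 71676383 to 71690577 and Tyk2 on 9 from 21104068 to 21131393, each with 25 exons in its longest RefSeq-matched transcript. Jak3 shares 8.04% of its 50-base words with other genes, chiefly Insl3, which overlaps it on the same strand and was listed at 9.27 ± 0.749 TPM. Jak1, Jak2 and Tyk2, like Il2rb and Il4ra, share none with any other gene. Jak1 overlaps Raver2 on the opposite strand, which was listed at 6.51 ± 0.237 TPM, and Il4ra and Tyk2 overlap unlisted opposite-strand models. The labels do not say whether strand was used in counting.

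The gamma chain and its kinase were not at equal transcript levels. Il2rg exceeded Jak3 by 2.09 ± 0.131 on the log2(TPM + 1) scale, a TPM ratio of 4.26, and exceeded Jak1 by 1.39 ± 0.087 (2.63). The 17 within-library differences computed for this family all had 1 direction in 3 of 3 libraries. An exact permutation test that flips the signs of the 3 differences (two-sided) gave p = 0.25 for each, the smallest it can give, and Benjamini-Hochberg adjustment over the 17 left it at 0.25, so this test cannot reach significance with 3 libraries. The smallest of the 17, Il2rg over Il7r, was 0.23, 0.28 and 0.29 in replicates 2, 1 and 3.

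**Figure D3:**
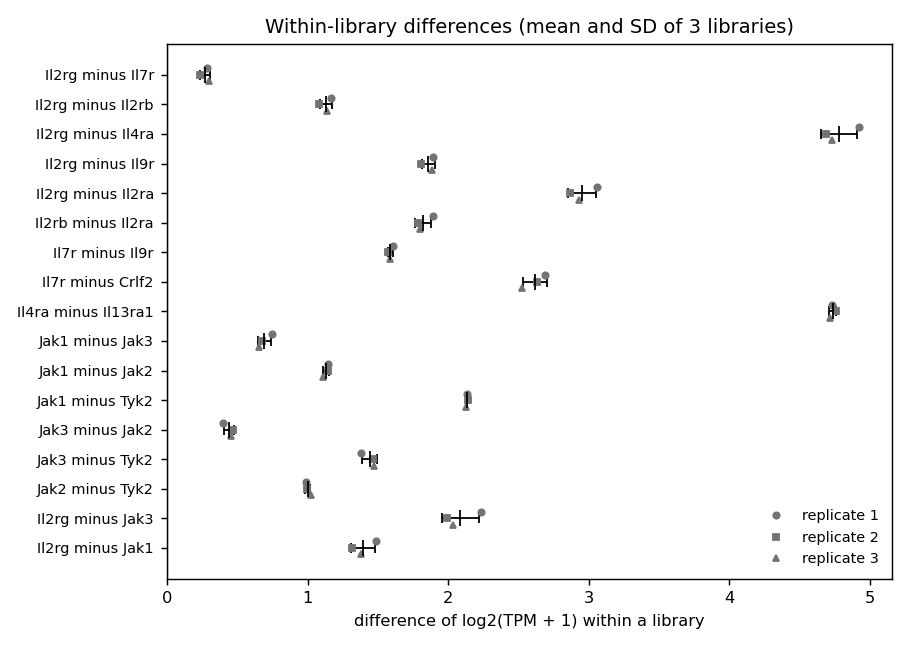
Difference of log2(TPM + 1) between the first and the second gene of each of the 17 pairs. Grey symbols are the 3 libraries, black bars the mean and SD. Every library's value lies above 0, from 0.23 for Il2rg minus Il7r in replicate 2 to 4.93 for Il2rg minus Il4ra in replicate 1.

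The full order by mean TPM was Il2rg, Il7r, Il2rb, Jak1, Il9r, Jak3, Jak2, Il2ra, Tyk2, Il4ra, and in each of the 9 neighbouring pairs the lowest library of the higher gene was above the highest library of the lower gene. The narrowest step was Il9r over Jak3, 214 TPM at the lowest against 193 at the highest. The step from Il2rb to Jak1 depended on the length assumed for Il2rb. The deposited values imply an effective length of 3149 bases for it, against 4194 bases for its longest RefSeq-matched transcript, and with the longest transcript of each gene Jak1 was the higher gene: the log2 difference of Il2rb minus Jak1 was -0.12 ± 0.036, where the deposited TPM gave 0.27 ± 0.047.

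The spread between libraries was small for all 10 genes. Coefficients of variation ran from 1.44% (Il2rb) to 5.13% (Jak3), with a median of 2.69%, beside a median of 3.07% over the 1658 listed genes of at least 100 TPM. Between 4059 (Il4ra) and 59675 (Il7r) estimated reads over the 3 libraries stood behind each gene. For 9 of the 10 the coefficient of variation was larger than the counting error of the reads, and for Tyk2 it was 1.73% against 1.82%. The same count was not made over all listed genes, so it cannot be read as particular to the 10. These counting errors leave out the uncertainty of dividing reads between genes.

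Il2rg, Il7r, Il2rb and Il9r were highest in replicate 1, 4 of 6 receptor chains, and Il2ra, Il4ra and all 4 kinases were lowest there. Over all listed genes of at least 20 TPM, 28.2% were highest and 43.9% lowest in replicate 1, so a gene being lowest there was common. Summed over the 6 chains, of which Il2rg and Il7r contributed most, the level was 2229, 2120 and 2146 TPM in replicates 1, 2 and 3, and summed over the 4 kinases it was 671, 702 and 707 TPM. The ratio of these sums was 3.32 in replicate 1 and 3.02 and 3.03 in replicates 2 and 3. This pattern was noticed in the values, and a difference between chains and kinases was not tested.

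**Figure D4:**
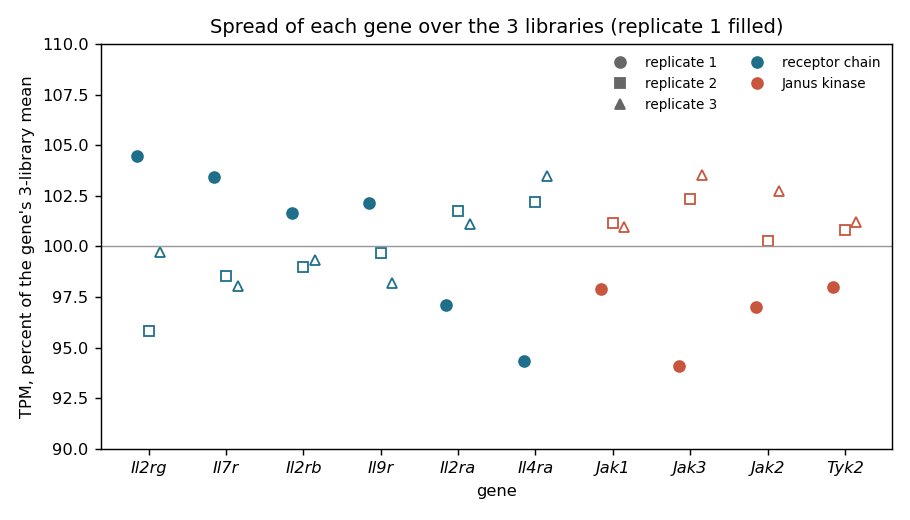
TPM of each gene in each library as a percent of its 3-library mean. Circles (filled) are replicate 1, open squares replicate 2 and open triangles replicate 3, with receptor chains in blue and Janus kinases in red. Replicate 1 is the highest library for Il2rg, Il7r, Il2rb and Il9r and the lowest for the other 6 genes.

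Macrophage transcripts varied between the libraries more than the 10 genes did. Of 8 listed macrophage and monocyte markers 7 were detected, and their summed level was 388, 380 and 531 TPM in replicates 1, 2 and 3, led by Chil3, Lyz2 (39.1 TPM) and C1qb (5.83 TPM). Divided by the mean of replicates 1 and 2, the replicate 3 level had a median of 1.39 over these 7 markers. The same ratio ran from 0.971 (Il7r) to 1.05 (Jak3) over the 10 genes, and was 1.05 for Il4ra. How much of the Il4ra level came from other cells was not tested.

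The genes closest in level were found as the smallest Euclidean distance of log2(TPM + 1) over the 3 libraries. For Il2rg they were Clic1 (819, 769 and 783 TPM, distance 0.029) and Ctsw (distance 0.119). For Jak1 they were Clk1 (0.024) and Cytip (0.039), and for Jak3 Lbr (0.0081) and Rhog (0.046). With 3 libraries of 1 group this likeness is mainly one of level.

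Most ligands of these receptors were low in the same cells. Of 6 listed ligand genes, 5 were detected (83.3%, against 67.3% of all listed genes). Among them only Il13, which binds the IL-4Rα chain with IL-13Rα1, was abundant, at 1031, 929 and 955 TPM. Il4 was at 6.76, 9.59 and 5.49 TPM, Il15 at 4.1, 2.22 and 4.98, Il2 at 3.11, 2.8 and 2.57 and Il21 at 1.86, 1.76 and 1.91. Il7 was below detection at 0.33, 0.37 and 0.53 TPM. Il9 and Tslp were not among the listed genes and were not analysed here.

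Further chains that complete receptors with these genes were uneven. Crlf2, the TSLP-specific partner of Il7r, stood at 105, 104 and 111 TPM, and Il7r exceeded it by 2.62 ± 0.082 on the log2(TPM + 1) scale (TPM ratio 6.18). Il15ra and Il21r stood at 25.9 ± 3.54 and 23.9 ± 1.42 TPM, close to Il4ra. Il13ra1, the partner of Il4ra in the receptor for IL-13, was at 0.03, 0.09 and 0.14 TPM (1, 3 and 5 estimated reads), and Il4ra exceeded it by 4.74 ± 0.024 on the log2(TPM + 1) scale. The size of that last difference is set mainly by the pseudocount, and it was 7.27 with a pseudocount of 0.1.

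Other receptor chains that use JAK1, JAK2 or TYK2 were detected for 12 of 27 genes, 44.4% against 67.3% of all listed genes, with a median of 0.667 TPM. The highest were Ifngr1 (231 ± 0.955), the ligand-binding chain for interferon gamma, Il27ra (212 ± 7.16), Il10ra (114 ± 5.35) and Il10rb (72.1 ± 3.47). Il22ra1 and Prlr were among the lowest, at a mean of 0.0167 TPM each. Each of the detected chains was below Il2rb.

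**Figure D5:**
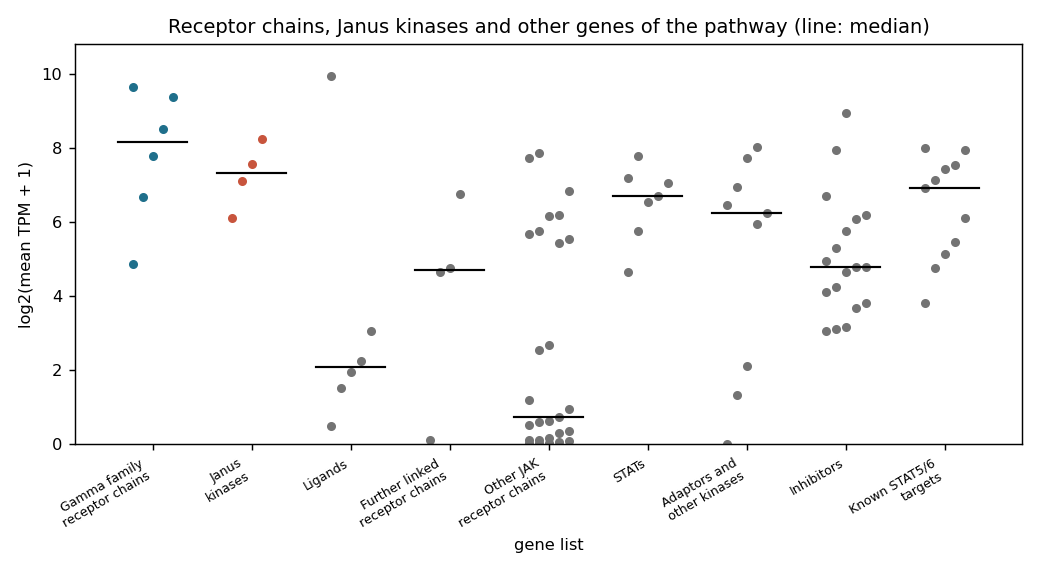
log2(mean TPM + 1) of each gene (points) by list, with list medians as lines; blue and red are the 6 receptor chains and 4 Janus kinases. The medians of the receptor chains (291 TPM) and kinases (162 TPM) lie above those of the other lists. The lists of ligands, further linked receptor chains, other JAK-using receptor chains and adaptors and other kinases reach down to below 1 TPM.

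All 7 STAT genes, whose proteins the Janus kinases phosphorylate, were detected, against 67.3% of all listed genes, with a median of 103 TPM. Stat3 (145 ± 2.91), Stat6 (132 ± 2.60), which IL-4 and IL-13 activate, and Stat5b (103 ± 1.51) were among the highest and Stat2 (23.9 ± 0.524) was the lowest. Stat5a and Stat5b, which IL-2, IL-7 and IL-9 activate, stood at 53.3 ± 1.52 and 103 ± 1.51. The close relatives Stat5a and Stat5b may share reads, so their split is uncertain. Of 9 adaptors and other kinases 8 were detected (88.9%, beside the same 67.3%). They were led by Lck (259 ± 7.98), Grb2 (210.0 ± 9.16), Pik3cd (122 ± 3.23) and Shc1 (86.2 ± 0.765). The insulin receptor substrate genes split, with Irs2, known to dock on the IL-4 receptor, at 75.0 ± 8.57 TPM and Irs1 at 0.0133 ± 0.0058.

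All 18 inhibitors of the receptors and kinases were detected, against 67.3% of all listed genes, with a median of 26.4 TPM. Above 100 TPM were the phosphatase gene Ptprc (CD45, 485 ± 15.8), Cish (243 ± 12.5), a STAT5-induced inhibitor, and Ptpn2 (102 ± 3.96), which dephosphorylates JAK1 and JAK3. Ptpn1 (71.3 ± 1.82) came next and Socs5 (7.29 ± 0.536) the lowest. Known STAT5 or STAT6 targets were detected for 11 of 11 genes, beside the same 67.3%, with a median of 120 TPM. The highest were Gata3 (256 ± 4.999), Cish, the survival kinase gene Pim1 (185 ± 11.003) and the survival gene Mcl1 (172 ± 4.68). The lowest target was Socs2 (13.1 ± 1.44), so 2 STAT5-induced inhibitors of the same family, Cish and Socs2, differed widely in level. Without untreated cells, none of these levels can be set against a state without cytokine.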

How the data were processed

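Bowtie2 and RSEM 1.3.1 with genome build GRCm38.p6 are named, without order or settings, in the submitters' processing notes. Per the file headers, the authors deposited expected counts, TPM (1000000 per library), FPKM and a depth-scaled signal, which was not used for levels. TPM was the main unit. Log values are log2(TPM + 1). Detection was 1 TPM in every library. RNA was measured in 3 libraries of 1 group, so no test between groups was made. Effective lengths were computed from the deposited counts and FPKM. Transcripts and 50-base words are from GENCODE M21 on GRCm38, coordinates and promoters from RefSeq on GRCm38.p6, in which 16081 of 16129 gene IDs matched. The 10 genes, the gene lists and the pairs were chosen with earlier results of these data known, and the GATA, RUNX and ETS motifs were added after the STAT motif was searched. Named genes are the 10, the genes of the 17 pairs, up to 4 highest and the lowest of each pathway list with every ligand, the 2 nearest genes in level, and up to 3 highest of each marker list. Areg, Foxp3, Raver2, Insl3, Stat5a, Irs2 and genes tied for the lowest were named outside that rule, after their values were seen, and a few genes within it are not reported here. Alternatives were a pseudocount of 0.1, FPKM, counts per kilobase of the longest RefSeq-matched transcript (15403 genes with a length), median-ratio scaling, detection at 0.5 or 5 TPM, a filter of 10 counts and leaving out each library. The log2 differences were checked on simulated libraries, and the permutation test and Benjamini-Hochberg adjustment on inputs with known answers. Other steps were not tested in this way. The code ran in Python 3.11.15 with numpy 2.4.6 and pandas 2.3.3.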

Additional observations from a re-analysis of the deposited data

How the results depend on the processing

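The 17 within-library differences kept their direction with a pseudocount of 0.1, FPKM, longest-transcript lengths and each library left out. All 10 genes were detected at 0.5 TPM, against 71% of all listed genes, and at 5 TPM, against 57.6%. Longest-transcript lengths moved the ratio of Il2rg to its partner chains from 0.615 to 0.685, and adding Il2ra and Il15ra to the partners moved it to 0.56. Added after seeing the data, longest-transcript lengths put Il2rb below Jak1 (-0.12 against 0.27 on the log2 scale), since the length used for Il2rb differs. They moved Il2rg over Il7r to 0.38, Il7r over Il2rb to 1.11, Jak1 over Il9r to 0.52, Jak2 over Il2ra to 0.30 and Il2ra over Tyk2 to 0.62, all in the same direction. Median-ratio scaling moved no order. Under it the same 4 receptor chains were highest in replicate 1 and the 4 kinases lowest. Expected counts divided by the library total gave the same. How many of all listed genes were highest or lowest in replicate 1 on these other scales was not counted. The pattern on them can therefore not be read as particular to the 10 genes. Beyond the differences within a library, no paired analysis was possible because there is 1 group. Depth limits the low genes: Il13ra1 rests on 9 and Il7 on 33.0 estimated reads over the 3 libraries.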

Other observations

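Il15ra, the chain that presents IL-15 to Il2rb and Il2rg, had the largest change in the ratio of TPM to reads between libraries among 13 genes compared, the 10 genes with Il15ra, Il21r and Crlf2; other receptor chains were not compared. Its TPM was 23.9, 23.7 and 29.9 in replicates 1, 2 and 3, and its estimated reads were 510.2, 517 and 559.9. The effective length implied by the deposited values was 2209, 2295 and 1971 bases, a spread of 16.4%, which 0.198% of 8077 genes of at least 5 FPKM exceeded, where the median gene spread by 0.314%. In replicate 3 the reads were highest and the implied length was shortest. Among the 10 genes Il9r had the largest such spread, 2.66% (4165, 4229 and 4276 bases).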
